A study of Homo sapiens with 8 samples.

Results

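The genes described here were 91 long noncoding RNA (lncRNA) loci whose RNA was more abundant in the nucleoplasm than on chromatin in HAP1 cells. They were chosen from measured values: among 1532 GENCODE lncRNA genes with a mean normalized count of at least 50 over the 6 short-read libraries, the 91 had a log2 ratio of chromatin to nucleoplasm below -1, with a pseudocount of 1 added to each mean. The other 1441 lncRNA genes above the same abundance minimum were the comparison set, and the table held 16110 matched lncRNA genes among 62727 genes in all. Of the 91, 4 carried a GENCODE identifier in the table and 87 were assembled loci matched to an lncRNA gene by a same-strand span Jaccard index of at least 0.5. Because the ratio chose the loci, their ratios are a description, and limma values of the loci support nothing further.

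HAP1 is a near-haploid human line derived from a leukemia. Untreated HAP1 nuclei were extracted with urea and detergent, the supernatant was taken as nucleoplasm, and the pellet was taken as chromatin. ERCC RNA standards were added to both fractions, and ribosomal RNA was depleted. The 3 chromatin and 3 nucleoplasm libraries, from the fractions of 3 independent cultures, were sequenced as directional short reads. Chromatin RNA from 2 replicates was also given enzymatic poly(A) tails and read as full cDNA strands by nanopore sequencing, so no long reads of nucleoplasm were used here. Direct cDNA sequencing can read either strand of a molecule, so the strand of a long-read transcript is uncertain. All samples shared one wild-type line and no treatment, and the fractions were made from nuclei. RNA from outside the nucleus may remain in them. MT-CO1, a mitochondrial gene, averaged 102127 normalized counts in nucleoplasm, although nuclear copies of such genes were not separated. The values are bulk measurements of fractions, in which fewer cells that hold an RNA and less of it per cell cannot be told apart.

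Most lncRNAs described in the literature are retained in the nucleus, many of them at their sites of transcription, and a smaller number are exported and act in the cytoplasm. Release from chromatin generally follows cleavage and polyadenylation, which in most human transcripts depends on the hexamer AATAAA or a close variant a short distance before the RNA's end. An lncRNA annotated across several neighbouring genes, called a readthrough transcript, can share its exons with messenger RNAs. In such a locus, short reads from a messenger RNA and from the lncRNA cannot be told apart where exons are shared.

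The ends of 5 loci are shown as examples of a poly(A) signal, and they were picked from the 27 of 46 loci with no shared exon that have one. Each is the last 50 bases of the canonical GENCODE transcript in hg38, 5′ to 3′, with the letters AATAAA in capitals. The 5 stretches lie at chr16:2154792-2154841 for SNHG19, chr12:111839764-111839813 for MAPKAPK5-AS1, chr17:7581968-7582017 for ENSG00000233223, chr17:81029130-81029179 for BAIAP2-DT and chr11:1995176-1995225 for H19, all on the minus strand.
SNHG19: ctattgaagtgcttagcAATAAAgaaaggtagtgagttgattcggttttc
MAPKAPK5-AS1: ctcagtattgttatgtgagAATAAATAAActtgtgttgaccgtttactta
ENSG00000233223: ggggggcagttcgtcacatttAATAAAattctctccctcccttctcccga
BAIAP2-DT: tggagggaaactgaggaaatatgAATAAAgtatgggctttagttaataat
H19: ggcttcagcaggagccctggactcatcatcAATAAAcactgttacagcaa

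The next pair of sequences is shown because a locus with one of the lowest ratios holds a copy of a messenger RNA. The processed pseudogene ENSG00000218227 lies inside the lncRNA locus FAM153CP, at chr5:178055604-178055703 (plus strand, hg38) for the stretch shown, and RPL19 encodes a protein of the large ribosomal subunit. The first 100 bases of the RPL19 coding sequence, from 2 exons within chr17:39200345-39201307 on the plus strand, are set beside the pseudogene, with the 4 bases that differ in capitals.
ENSG00000218227: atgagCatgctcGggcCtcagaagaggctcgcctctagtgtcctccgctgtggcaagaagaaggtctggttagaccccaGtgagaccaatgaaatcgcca
RPL19: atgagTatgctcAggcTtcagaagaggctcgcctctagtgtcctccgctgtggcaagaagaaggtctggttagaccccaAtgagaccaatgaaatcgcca

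The ratio of the 91 loci had a median of -1.32 and ran from -2.70 for ENSG00000272368 to -1.003 for TOB1-AS1, whereas the other 1441 lncRNA genes had a median of 1.35. In 90 of the 91, all 3 chromatin libraries were below all 3 nucleoplasm libraries, and 46.0% of all tested genes had that order. The exception was ASNSP1, a pseudogene locus listed at 111, 0 and 0 normalized counts in chromatin and at 225, 276 and 0 in nucleoplasm. By limma, 89 of the 91 passed the threshold of an adjusted p under 0.05 and a 2-fold decrease, beside 4.10% of tested lncRNA genes and 26.9% of all 26066 tested genes. These counts describe the choice of the loci and support nothing further. The libraries were scaled by the authors without regard to the ERCC standards. Scaling to the standards moved the median log2 fold change of all genes from -0.02 to -1.33, while scaling to equal totals moved it to 0.44. The paper describes the standards as equivalent between the fractions, and the reason for the difference from this shift was not tested. None of the 28 loci named by rule changed sign under either scaling, an outcome that their choice below -1 favours. With equal totals, 35 of the 91 stayed below -1.

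The plot of named loci by library shows how closely the replicates lay. The standard deviation of log2 counts within a fraction had a median of 0.172 in chromatin and 0.0721 in nucleoplasm over the 91 loci.

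**Figure D1:**
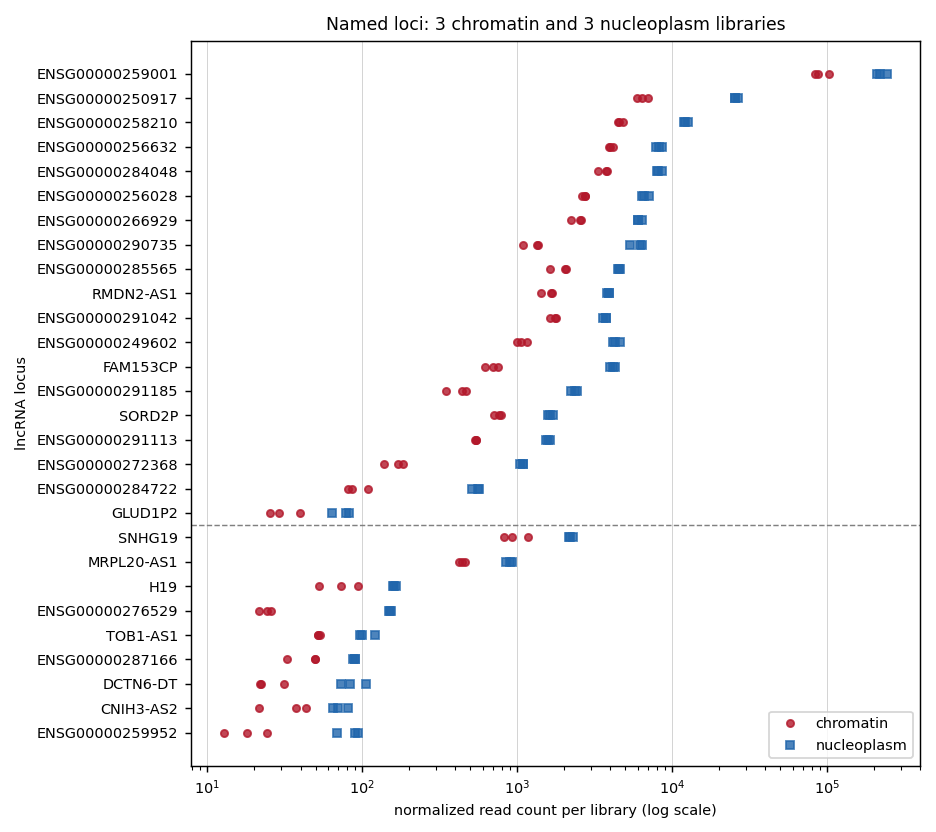
Normalized read count (x axis, log scale) of each named lncRNA locus (y axis) in the 3 chromatin libraries (circles) and the 3 nucleoplasm libraries (squares). Loci above the dashed line hold same-strand exons of another gene and those below it do not. In every locus shown the chromatin points lie left of the nucleoplasm points, an order that the choice by ratio favours.

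The label lncRNA may not describe all of the RNA counted, and which gene gave the reads of a locus was not tested. Of the 91 loci, 26 held same-strand exons of a protein-coding gene that had no entry of its own in the count table, 1 held a ribozyme gene, 17 with no coding exon held a pseudogene and 1 held another lncRNA. Of the 26 coding loci, 5 also held a pseudogene without its own entry. The remaining 46 loci (50.5%) held no such exon. Coding exons were shared in 28.6% of the 91 loci and in 7.15% of the other lncRNA genes, and pseudogenes without coding exons in 18.7% and 12.3%. By summed mean counts, the ribozyme locus held 62.0% of the signal of the 91 loci, the coding loci 29.5%, the pseudogene loci 3.92% and the 46 loci without shared exons 4.47%.

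The share of loci with coding exons was lower in each higher class of the ratio. It was 28.6% of the 91 loci below -1, 17.0% of the 229 loci between -1 and 0, 8.85% of 339 between 0 and 1, 5.43% of 405 between 1 and 2, 4.06% of 271 between 2 and 3, and 0.508% of the 197 loci at 3 or above. The share with no shared exon was 50.5% below -1, 68.1% in the next class and 87.3% at 3 or above. When libraries were scaled to the ERCC standards, coding exons were shared in 19.4% of the loci below -1 and in 4.52% of the rest. Equal totals gave 22.9% and 8.08%. The excess of loci with pseudogenes but no coding exon depended on the scaling. Under the ERCC standards such loci made up 13.4% of those below -1, close to the 12.4% of the rest. Equal totals left 35 loci below -1, of which 34.3% were of this kind, beside 12.2% of the rest. Nor did this class fall steadily with the deposited ratio, at 10.9% between 0 and 1 but 15.8% between 1 and 2.

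**Figure D2:**
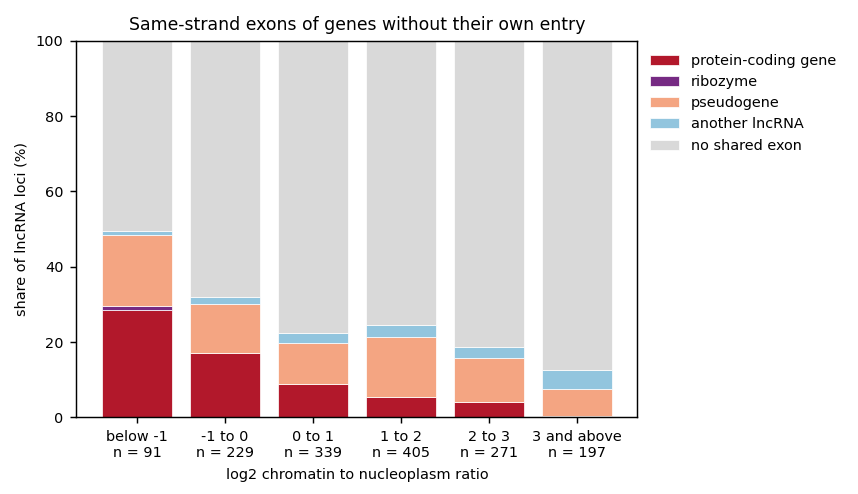
Share of lncRNA loci (y axis, percent) by the class of gene without its own entry whose same-strand exons they hold, in 6 classes of log2 chromatin to nucleoplasm ratio (x axis, n below each bar). The share with coding exons is 28.6% in the leftmost bar and 0.508% in the rightmost.

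The most abundant locus was ENSG00000259001 (chr14:20342927-20343685, minus strand, hg38), whose single exon covers 333 bases of RPPH1. RPPH1 is the RNA subunit of ribonuclease P, which trims the 5′ end of precursor tRNAs, and it is transcribed by RNA polymerase III. The locus had 87952, 84396 and 103772 normalized counts in chromatin and 210102, 219616 and 245299 in nucleoplasm, a mean of 92040 ± 10315 against 225006 ± 18207 (SD, n = 3), with no overlap between fractions. Its ratio was -1.29. In the long-read chromatin libraries, transcripts of ENSG00000259001 had 0.0502 and 1.98 TPM and those of RPPH1 0.052 and 1.56 TPM, which put this locus far lower among long reads than among short reads. PARP2, which encodes a DNA repair enzyme and starts 70 bases away on the opposite strand, was lower in chromatin as well, with a log2 fold change of -1.03 (limma adjusted p = 8.54e-08).

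Among the 26 coding loci, the most abundant was ENSG00000250917, an assembled locus (chr20:34231351-34311802, minus strand) that holds exons of AHCY. The lncRNA gene itself is annotated at chr20:34234840-34281173, and AHCY starts 30629 bases from its start. AHCY encodes adenosylhomocysteinase, which breaks down the by-product of methylation reactions. The locus had 6400, 5943 and 7019 normalized counts in chromatin and 25527, 25702 and 26666 in nucleoplasm, a ratio of -2.01. The fractions did not overlap. Long reads in chromatin gave AHCY 97.4 and 98.1 TPM, while the annotated transcripts of ENSG00000250917 were listed at 0 in both libraries.

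The next coding locus by abundance was ENSG00000258210 (chr12:110372686-110450660, minus strand), which spans ARPC3, a subunit of the Arp2/3 complex that branches actin filaments. It had 4466, 4528 and 4838 normalized counts in chromatin against 12018, 12094 and 12616 in nucleoplasm, with a ratio of -1.41. ARPC3 had 144 and 147 TPM in the long-read libraries and the lncRNA transcripts 0 in both. ANAPC7, a subunit of the anaphase-promoting complex on the same strand, has an entry of its own in the table and went the other way, with a log2 fold change of 3.94 by limma.

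The lowest ratio of all belonged to ENSG00000272368 (chr12:50112082-50165618, plus strand), a 2-exon lncRNA whose locus holds COX14, a factor for assembly of cytochrome c oxidase. It had 183, 138 and 171 normalized counts in chromatin and 1045, 1092 and 1089 in nucleoplasm, so that the nucleoplasm libraries were all far above the chromatin libraries. Its ratio was -2.70. Both kinds of transcript were seen in the chromatin long reads, at 28.0 and 61.6 TPM for COX14 and 4.57 and 6.14 TPM for the lncRNA. The ratio of ENSG00000249602, in a locus that holds MRPL9 of the mitochondrial ribosome, was -2.02. That of ENSG00000290735, with the histone gene H3-7, was -2.25. The whole ENSG00000290735 transcript aligns to another histone gene, H2BC18, at 98.93% identity. H2BC18 had a log2 fold change of -1.92 by limma, and how reads were split between them was not tested.

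ENSG00000284722 lies across the olfactory receptor gene OR2AT4 and had a ratio of -2.56, from 86.2, 80.5 and 109 normalized counts in chromatin and 509, 561 and 565 in nucleoplasm. Neither its transcripts nor those of OR2AT4 were seen in the long reads. The same locus holds NPM1P50, a pseudogene related to NPM1, the gene of a nucleolar chaperone. NPM1P50 was listed at 0 and 1.87 TPM in the chromatin long reads. Which of these sequences gave the short reads was not tested.

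The other abundant coding loci had ratios between -1.04 and -1.34. They were ENSG00000256632 with PGAM5 and PXMP2 (-1.04), ENSG00000284048 with REPIN1 and ZNF775 (-1.18), ENSG00000256028 with OGFOD2 and ARL6IP4 (-1.30), ENSG00000266929 with COASY and NAGLU (-1.34), ENSG00000285565 with HSPA1B (-1.25), RMDN2-AS1 with CYP1B1 (-1.29) and ENSG00000291042 with TF and SRPRB (-1.11). HSPA1B encodes an inducible heat shock protein of the HSP70 family, COASY the enzyme of the last steps of coenzyme A synthesis, and CYP1B1 a cytochrome P450. At 2 of these 7 loci the annotated lncRNA had more long-read TPM than the coding genes in both libraries. ENSG00000285565 had 27.0 and 18.5 TPM against 16.0 and 7.04 for HSPA1B, and ENSG00000256028 had 3.91 and 5.11 TPM against 0.817 and 2.69 for its coding genes. Long-read transcripts on the opposite strand had 26.7 and 35.1 TPM at ENSG00000285565 and 5.16 and 42.8 TPM at ENSG00000256028, and 69.4% of the ENSG00000285565 transcript is a copy of HSPA1A at 99.7% identity, so the long reads do not assign the RNA at these loci.

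Over all 26 coding loci, which hold 39 coding genes, the coding genes were above 0 in both long-read libraries in 24. The annotated lncRNA transcripts were at 0 in both libraries in 12 loci and above 0 in both in 10. The coding genes were above the lncRNA in both libraries in 20 loci, with medians of 11.7 and 7.90 TPM against 0 and 0.127 TPM. In 22 of the 26 loci the coding exons held more bases than the lncRNA's own exons, with medians of 4716 and 1961 bases. The plot of long reads in coding loci shows these values by library.

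**Figure D3:**
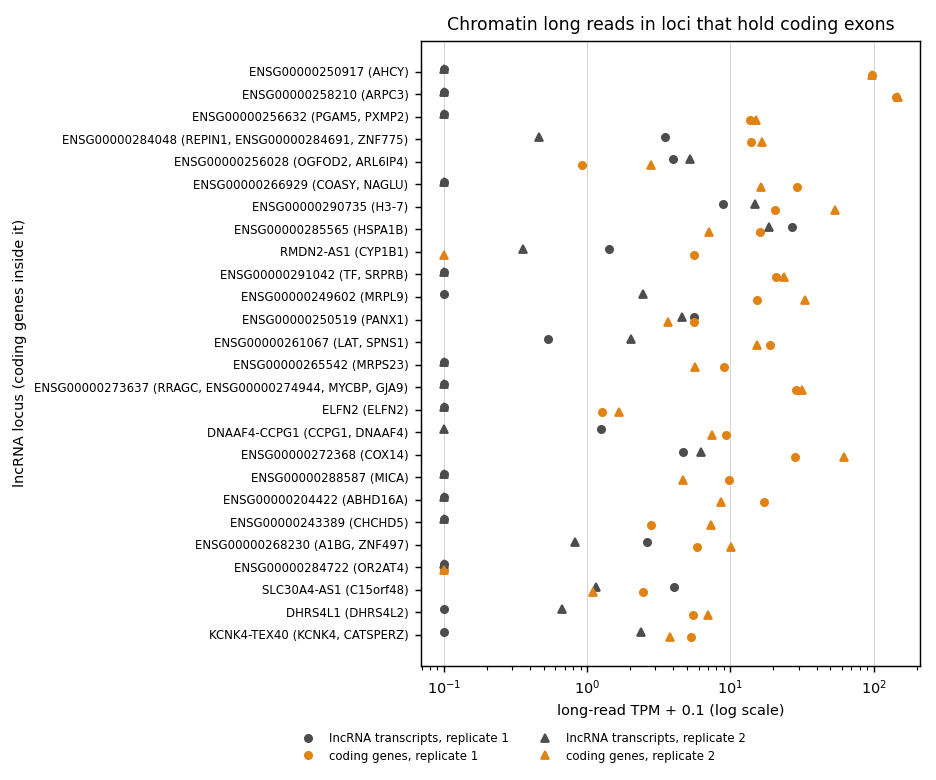
Long-read TPM in chromatin plus 0.1 (x axis, log scale) for the annotated lncRNA transcripts and for the coding genes inside each of the 26 coding loci (y axis), by long-read replicate. Coding genes lie right of the lncRNA in both libraries in 20 of the 26 loci, and points at 0.1 are listed at 0 TPM.

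Among the 17 pseudogene loci, FAM153CP (chr5:178006348-178086529, plus strand) had the lowest ratio, -2.58. It had 703, 616 and 753 normalized counts in chromatin and 4171, 3989 and 4284 in nucleoplasm, and the fractions lay far apart. The pseudogene inside it, printed above beside RPL19, is 97.29% identical to RPL19 over 591 aligned bases, of which 16 differ, and 131 of its 542 windows of 50 bases (24.2%) are found unchanged in RPL19. RPL19 itself averaged 7284 normalized counts in chromatin against 49611 in nucleoplasm (n = 3), and limma gave it a log2 fold change of -2.78 (SE 0.085, adjusted p = 1.59e-08). In the chromatin long reads the pseudogene was listed at 1116 and 948 TPM and FAM153CP itself at 0 and 7.43 TPM. Reads that match both genes equally well can be given to either, and how the counting split them was not tested.

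Similar pairs recurred. ENSG00000291185, with the pseudogenes LDHAP4 and CLCN3P1, had 440, 348 and 465 normalized counts in chromatin and 2375, 2238 and 2437 in nucleoplasm, a ratio of -2.49, and LDHA, which encodes a lactate dehydrogenase subunit, had a log2 fold change of -2.17 by limma. Over the set, 27 pseudogenes without their own entry lay in the loci, and 23 of them, in 20 loci, had a coding relative. Of the 18 distinct relatives that were tested, 11 fell in chromatin, 1 rose and 6 did neither, with a median log2 fold change of -1.43. Of all tested genes, 26.9% fell and 32.2% rose. The relatives share sequence with loci chosen by the ratio, so reads of one can count for the other and the directions are not independent. Relatives of pseudogenes in the other lncRNA loci were not counted. The relative that rose was ZFAND6, with 1.06, a value smaller than the shift of all genes under ERCC scaling. HNRNPA1 (-1.53), an RNA-binding protein that affects splicing, and ACTG1 (-2.14), a cytoplasmic actin, fell, while ROCK1 (-0.73) and BMS1 (-0.12) did not pass the 2-fold threshold.

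Annotated lncRNA transcripts of 2 further pseudogene loci were among the 5 highest of the 91 in the long reads. ENSG00000291113 had 540, 538 and 544 normalized counts in chromatin and 1543, 1583 and 1636 in nucleoplasm, with 64.2 and 53.4 TPM in the long reads, and its relative THOC3, a subunit of the THO complex for messenger RNA export, had a log2 fold change of -1.70. SORD2P had a ratio of -1.11 and 50.4 and 35.1 TPM, and its relative SORD, which encodes sorbitol dehydrogenase, had a log2 fold change of -0.48, which did not pass the threshold.

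Counts of the 46 loci with no shared exon could be read as lncRNA with fewer conditions than those of the sharing loci. Only 26 of the 46 also had no near-identical copy and no opposite-strand coding exon, as described below. SNHG19 (chr16:2154797-2155358, minus strand), the host gene of the small nucleolar RNA SNORD60, was the most abundant of the 46. It had 926, 825 and 1184 normalized counts in chromatin and 2157, 2188 and 2287 in nucleoplasm, a mean of 978 ± 185 against 2211 ± 67.8 (SD, n = 3) and a ratio of -1.18. It has 2 exons and a spliced length of 394 bases, and it had 68.9 and 50.9 TPM in the long reads of chromatin, where transcripts on the opposite strand of the locus had 64.6 and 33.7 TPM.

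H19 (chr11:1995176-2001470, minus strand), the imprinted lncRNA that hosts the microRNA MIR675, had 73.4, 52.8 and 94.4 normalized counts in chromatin and 159, 160 and 166 in nucleoplasm. All chromatin libraries were lower, with a mean of 73.5 ± 20.8 against 162 ± 4.07 (SD, n = 3). The limma log2 fold change was -1.17 ± 0.19 (SE), a direction fixed by the choice of the locus. Without chromatin replicate 2, H19 no longer passed the 2-fold threshold. H19 has 5 exons and had 4.94 and 2.04 TPM in the long reads.

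Other loci named for their ratio, abundance or long reads were smaller. ENSG00000276529 (chr21:44978832-44979274, plus strand), a single exon of 443 bases, had 25.6, 21.6 and 24.2 normalized counts in chromatin and 150, 152 and 149 in nucleoplasm. Its ratio of -2.61 was the lowest of the 46, and it had 14.7 and 5.69 TPM in the long reads. DCTN6-DT had 22.1, 31.2 and 22.0 against 106, 73.2 and 82.8 normalized counts, a ratio of -1.76, with 16.5 and 14.0 TPM. No transcript on the opposite strand was listed at either locus.

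Further values were chosen after they were seen, to show the range among loci with no shared exon. MAPKAPK5-AS1 had 785, 609 and 707 normalized counts in chromatin and 1528, 1465 and 1534 in nucleoplasm. EMSY-DT had 148, 144 and 138 against 486, 513 and 541, a ratio of -1.83. GIHCG, an lncRNA studied in liver cancer, had 51.2, 87.7 and 79.0 against 252, 235 and 231, a ratio of -1.71. The fractions did not overlap in any of these 3 loci, an order that the choice by ratio favours and that 46.0% of all tested genes had. ATP6AP1-DT had 31.4, 36.0 and 32.9 against 125, 143 and 140 (ratio -1.99), and ZDHHC12-DT had 31.4, 20.4 and 41.7 against 133, 124 and 131 (ratio -2.02). BSG-AS1 had 86.2, 66.1 and 61.5 against 189, 226 and 215 (ratio -1.55).

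At the ratio threshold, the loci just inside were TOB1-AS1 (-1.003), ENSG00000287166 (-1.01) and MRPL20-AS1 (-1.02), and those just outside were ENSG00000285851 (-0.99), ZC3H12A-DT (-0.97) and BCRP3 (-0.97). TOB1-AS1 had 53.6, 51.6 and 51.6 normalized counts in chromatin and 97.4, 99.0 and 121 in nucleoplasm. Near the abundance minimum, ENSG00000259952 had 12.8, 18.0 and 24.2 against 93.9, 68.9 and 89.6, and CNIH3-AS2 had 43.1, 21.6 and 37.3 against 70.2, 64.6 and 81.1. Just under the minimum with a ratio below -1 were SPINT1-AS1, PLPPR5-AS1 and LINC02916, with means of 46.2, 45.1 and 41.3. Without the minimum, 260 lncRNA genes had a ratio below -1.

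Near-identical copies and opposite-strand exons were further places where reads could be shared. A copy elsewhere in the transcriptome of at least 95% identity over at least 50% of the transcript was found for 12 of the 91 loci (13.2%) and for 11.4% of the other lncRNA genes. ENSG00000264215 (chr17:20788071-20789584, plus strand) is such a case among the 46. Its whole transcript aligns to SCD, the gene of stearoyl-CoA desaturase, at 95.46% identity, and 8.26% of its 50-base windows are identical. It had 410, 285 and 419 normalized counts in chromatin and 1677, 1510 and 1483 in nucleoplasm, a ratio of -2.06, and SCD had a mean of 34989 against 116904, a log2 fold change of -1.75 (limma adjusted p = 5.57e-07).

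A coding exon on the opposite strand covered some of the transcript in 26 of the 91 loci (28.6%) and in 28.5% of the other lncRNA genes. Libraries were directional, so such reads can be told apart by strand as far as the strand marking held. Of the 46 loci, 15 had an opposite-strand coding gene with its own entry, and in 4 of these the nucleoplasm count was under 3% of that gene's count. They were BSG-AS1 at 0.557% of BSG, VIM-AS1 at 0.829% of VIM, ILRUN-AS1 at 1.34% of ILRUN and LRP4-AS1 at 2.76% of LRP4. MRPL20-AS1 was at 26.1% of MRPL20. The part of strand errors in the small counts was not tested. With shared exons, copies and opposite-strand coding exons all left out, a choice made after seeing the data, 26 of the 91 loci (28.6%) remained, and 48.0% of the other lncRNA genes. These 26 included SNHG19, H19, EMSY-DT, ATP6AP1-DT, ZDHHC12-DT, GIHCG, MHENCR and ENSG00000276529.

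The structure of the canonical transcripts was compared without a test. The 91 loci and the other lncRNA genes both had a median of 3 exons, and single-exon transcripts made up 13.2% and 24.6%. Over the 46 loci with no shared exon, the median was 2 exons (range 1 to 5), against 2 (range 1 to 37) in the other lncRNA genes of that kind. Their median spliced length was 1002 bases against 1800, and their median genomic span 3510 bases against 7084. The 26 coding loci had a median of 5 exons, 824 spliced bases and a span of 33220 bases. The largest exon number, 22, belonged to ENSG00000204422, a locus that holds ABHD16A.

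Spliced length among loci with no shared exon was lowest below a ratio of -1. The medians were 1002 bases in that class, 1646 between -1 and 0, 1771 between 0 and 1, 1858 between 1 and 2, 1713 between 2 and 3, and 1984 at 3 or above. The letters AATAAA, searched on the transcript strand in the last 50 bases, were found in 58.7% of these loci below -1 and in 41.0%, 39.2%, 40.9%, 33.2% and 40.7% of the following classes. Over the whole set, 47 of the 91 loci (51.6%) had the letters, against 37.2% of the other lncRNA genes. Among the 26 loci free of shared exons, copies and opposite coding exons, 18 (69.2%) had them against 41.3%. When ATTAAA, which does not overlap AATAAA at the same position, was counted too, 57.1% of the 91 and 47.6% of the others had a match. A match describes the annotated end only, and no use of a site was measured.

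**Figure D4:**
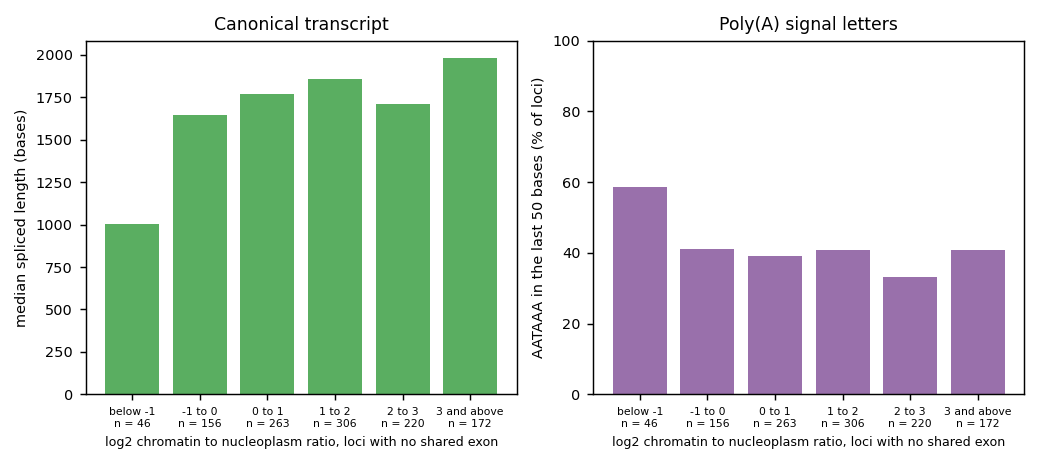
Median spliced length in bases (left, y axis) and share of loci with AATAAA in the last 50 bases (right, y axis, percent) for lncRNA loci with no shared exon, by log2 chromatin to nucleoplasm ratio (x axis, n below each bar). The leftmost class, the 46 loci described here, has the lowest length (1002 bases) and the highest share (58.7%).

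The names of the loci pointed to their neighbours. Of the 46, 18 (39.1%) were named as antisense RNAs (-AS) and 12 (26.1%) as divergent transcripts (-DT), against 24.9% and 13.5% of the other lncRNA genes with no shared exon. Divergent transcripts start near a coding gene's promoter and run the opposite way. Promoter sequences, from 250 bases before to 50 after the start, were found in RefSeq (GRCh38.p14) for 31 of the 91 loci. The letters GGGCGG on either strand, the core of the GC box bound by Sp1, were in 22 of them (71.0%) and in 63.4% of the promoters of the other lncRNA genes, beside 44.9% of all 35116 RefSeq promoters of the same length. The ratio of observed to expected CpG had medians of 0.85 and 0.82, beside 0.579 over all promoters.

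Promoters of a locus with and one without the GC-box letters are shown, 5′ to 3′ on the minus strand, because each locus starts close to a coding neighbour described next, SNHG19 at 293 bases from TRAF7 and EMSY-DT at 233 bases from EMSY. SNHG19 (chr16:2155309-2155608) has a single match, given in capitals as the reverse complement of GGGCGG, and EMSY-DT (chr11:76444631-76444930) has none.
SNHG19: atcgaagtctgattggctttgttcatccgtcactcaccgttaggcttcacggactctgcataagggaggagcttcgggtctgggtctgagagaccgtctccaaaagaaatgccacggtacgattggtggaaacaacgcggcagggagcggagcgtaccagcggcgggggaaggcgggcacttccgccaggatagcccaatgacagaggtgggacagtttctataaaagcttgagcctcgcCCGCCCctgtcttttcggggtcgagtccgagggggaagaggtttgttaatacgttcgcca
EMSY-DT: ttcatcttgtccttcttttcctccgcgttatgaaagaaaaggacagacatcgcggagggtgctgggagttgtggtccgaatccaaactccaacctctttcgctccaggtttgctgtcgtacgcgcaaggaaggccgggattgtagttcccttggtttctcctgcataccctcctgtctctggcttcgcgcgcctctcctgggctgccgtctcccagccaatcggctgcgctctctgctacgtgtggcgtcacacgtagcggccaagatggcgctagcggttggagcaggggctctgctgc

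The coding genes next to the loci did not move as one group. There were 55 coding partners with their own tested entry, in head-to-head, antisense or same-strand arrangement. By limma 17 were lower in chromatin (30.9%, beside 26.9% of all tested genes), 5 were higher (beside 32.2%) and 33 were neither. All tested genes include lncRNA genes, of which 64.1% were higher, and the shares among coding genes alone were not counted. Head to head, with starts within 2 kb, 10 of 31 were lower and 2 higher, and of 21 antisense partners 6 were lower and 2 higher. The median of the 55 was -0.19, and it was -1.51 with ERCC scaling and 0.28 with equal totals. The partners lower in chromatin included BSG (-2.63), which encodes the surface glycoprotein basigin, MRPL20 (-2.02) of the mitochondrial ribosome, ZDHHC12 (-1.92), ATP6AP1 (-1.79), an accessory subunit of the vacuolar proton pump, VIM (-1.77), the intermediate filament vimentin, and TRAF7 (-1.71) beside SNHG19.

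Some pairs went opposite ways. EMSY, which encodes a partner of BRCA2, rose from 1367 ± 89.0 in nucleoplasm to 7599 ± 386 in chromatin (SD, n = 3), or by 2.48 on the log2 scale (SE 0.0615, limma), while EMSY-DT had a ratio of -1.83. VPS13B, which encodes a protein of the Golgi, had a log2 fold change of 1.65 beside VPS13B-DT at -1.16. IL17RB, a cytokine receptor gene antisense to ENSG00000271976, was at 2.14. With ERCC scaling these 3 genes stayed above 0, at 1.15, 0.33 and 0.82. Whether pairs move together more or less than other neighbours was not tested.

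**Figure D5:**
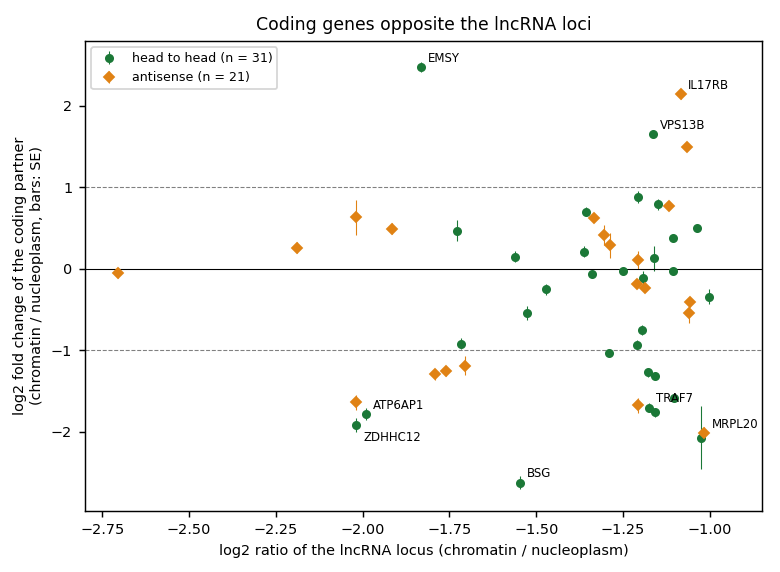
Log2 fold change of each tested coding partner (y axis, chromatin over nucleoplasm, bars SE from limma) against the log2 ratio of its lncRNA locus (x axis), for 31 head-to-head (circles) and 21 antisense (diamonds) pairs, with dashed lines at -1 and 1. BSG lies lowest at -2.63 and EMSY highest at 2.48.

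In the long reads of chromatin, 71 of the 91 loci (78.0%) had a transcript in both libraries by identifier or by overlap, against 82.7% of the other lncRNA genes. By identifier alone the shares were 60.4% and 73.2%, and 38.5% for the 26 coding loci. Among the 46 loci with no shared exon, 78.3% were seen by identifier, against 75.3% of the other lncRNA genes of that kind. The medians were 2.55 and 1.88 TPM over all loci of each set, seen or not. Of the 46, 10 also had transcripts on the opposite strand in both libraries. No long-read transcript was found for 9 of the 91 loci.

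Lists of lncRNAs with known roles set the 91 loci in context. Of 16 lncRNAs with a known cytoplasmic role, 9 were tested, and by limma 1 was lower in chromatin (H19), 3 were higher and 5 were neither, beside 4.10% lower and 64.1% higher among tested lncRNA genes. The higher ones were HULC (1.63), HOXB-AS3 (1.72), which encodes a small peptide, and SNHG5 (1.997). NORAD, which binds Pumilio proteins in the cytoplasm, had a log2 fold change of -0.42. GENCODE does not class TINCR, among the 9, or the untested BCYRN1 as lncRNA. GAS5, ZFAS1 and SNHG5 are also in the host gene list below, so these lists are not independent. Of 15 lncRNAs with a nuclear role, 12 were tested and 11 were higher in chromatin, beside 64.1% of tested lncRNA genes, MALAT1 with 3.09 among them, while HOTAIR was at 0.04. Of 32 small nucleolar RNA host genes, 22 were tested, of which 11 were higher (beside 64.1%) and 10 were neither. Only SNHG19 was lower (log2 fold change -1.19 by limma), a count near the 4.10% of tested lncRNA genes. H19 and SNHG19 belong to the 91 loci, so the rule fixed their direction. The medians of the 3 lists were 0.73, 2.36 and 1.04, beside 1.53 over the tested lncRNA genes and -0.02 over all genes. Scaled to the ERCC standards, the medians were -0.59, 1.19 and -0.29, so those of the cytoplasmic-role and host gene lists changed sign, and with equal totals they were 1.19, 2.77 and 1.499. H19 and SNHG19 were below 0 under both scalings, at -2.48 and -2.52 with the standards and at -0.71 and -0.73 with equal totals.

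Checks of the fractions used messenger RNAs and retained transcripts. The 6 fraction markers went with the library titles, with log2 fold changes of 3.09 for MALAT1, 3.11 for PVT1 and 2.40 for NEAT1 and of -2.35 for GAPDH, -2.11 for B2M and -1.95 for ACTB. Of 13 mitochondrial messenger RNAs, 9 were tested and 7 were lower in chromatin (beside 26.9% of all tested genes), with MT-CO1 at -2.001, MT-ND6 at 0.11 and a median of -1.46. Counts of mitochondrial RNA and of nuclear copies of these genes were not separated, and the part of RNA from outside the nucleus in the ratios of the 91 loci was not tested. BCR and ABL1, the genes joined in the leukemia from which HAP1 derives, were at -0.88 and -0.61 and did not pass the threshold, and 4 blood lineage genes were below the filter for testing.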

How the data were processed

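RNA from HAP1 chromatin and nucleoplasm was measured in 6 short-read libraries (3 each, from the fractions of 3 independent cultures) and 2 long-read chromatin libraries. Groups came from the sample titles, since the fraction label of the nucleoplasm libraries also says chromatin. Per the methods and the submitters' processing notes, the authors aligned short reads to hg38 with HISAT2 2.1.0, assembled and merged transcripts with StringTie, and estimated gene counts from its coverage. What the authors deposited for short reads is a normalized signal, each gene's count scaled by a DESeq2 size factor. The authors aligned long reads with minimap2, assembled them with StringTie and deposited TPM per transcript. Long-read depth is unknown from TPM.

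Dividing by the smallest step gave whole counts for 100% of values (tolerance 0.01), at depths of 38895027 to 43804918 per chromatin library and 75737601 to 79523938 per nucleoplasm library. As estimates from coverage, these counts are not independent reads. Because the table held normalized values, the main test was limma 3.58.1 with a trend on log2(value + 1), in R 4.3.3, for genes with at least 10 in 3 libraries and a span over 200 bases, and p-values were adjusted by Benjamini-Hochberg over 26066 genes. Fold changes of low genes are understated on this scale. A call needed an adjusted p under 0.05 and 2-fold. edgeR 4.0.16 and DESeq2 1.42.0 were run on the recovered counts, and the fits were tested on simulated data.

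GENCODE 44 (hg38) was matched by identifier for 26584 genes and by span for 29034, and 8 of the lncRNA genes above the abundance minimum shared an annotation with another. Exons were called shared when they lay on the same strand inside the span of the counted locus and their gene had no entry of its own. They need not overlap the lncRNA's own exons. Copies were found with BLAST 2.17.0. The members and lists were chosen with earlier results of these data known. Loci were named by rule as the 12 highest means, 6 lowest ratios, 5 highest long-read TPM, 3 inside each threshold and any in a list, and others were chosen after their values were seen. The limma p-values set the difference between fractions against the spread among libraries within a fraction. By the methods, both fractions came from 3 independent cultures. The labels do not say which libraries share a culture, and the main fit was unpaired.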

Additional observations from a re-analysis of the deposited data

How the results depend on the processing

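The number of lncRNA loci below the ratio threshold was 91, and it depended on scaling: 440 loci with an equal ERCC total in every library, all of the 91 among them, and 35 with the same total without ERCC. It was 139 with a mean of at least 10, 14 with a ratio below -2, 4 when only GENCODE identifiers were matched, and 85 to 98 when a library was left out. For the 28 named loci under 10 settings, none of 280 ratios changed sign and 250 stayed below -1. The loci were chosen below -1, which favours an unchanged sign, so this count is a description only. Of all tested genes, 7006 were lower in chromatin, 14724 with ERCC scaling (4953 higher), 4464 with equal totals (10158 higher), 2208 with a 4-fold threshold, and 6852 to 7134 with a library left out. edgeR called 6880 lower and DESeq2 6424. Of lncRNA genes 141 were lower, 684 with ERCC scaling, 57 with equal totals, 91 with a mean of at least 50, 23 at 4-fold, and 134 to 150 with a library left out (edgeR 137, DESeq2 114). Of coding partners 17 were lower, 39 with ERCC scaling, 10 with equal totals, 3 at 4-fold, and 16 to 17 with a library left out. Of lncRNAs with a cytoplasmic role 1 was lower, 3 with ERCC scaling, 0 with equal totals, 0 at 4-fold, and 0 to 1 with a library left out, the call of H19 being lost without chromatin replicate 2. Of small nucleolar RNA host genes 1 was lower, 6 with ERCC scaling, 0 with equal totals and 0 at 4-fold, and of nuclear-role lncRNAs 11 were higher and 7 with ERCC scaling. Of the 46 loci with no shared exon, 26 also had no near-identical copy and no opposite-strand coding exon, a definition added after seeing the data. Deviations of libraries with the same replicate number correlated weakly (0.0871, 0.0533 and 0.0626), although each library correlated best with its own number, a hint from the data that a number may mark a shared culture. A replicate block gave 7029 lower genes, 142 lncRNA genes and 17 partners. The scalings differ by construction in the common factor between fractions, and the cause of other changes was not tested.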
